A study of Mus musculus with 10 samples.

Results

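The smooth muscle contractile genes followed here were chosen by symbol in bulk RNA-seq of whole embryonic mouse kidneys: *Acta2*, *Actg2*, *Myh11*, *Mylk*, *Tagln*, *Cnn1*, *Tpm2*, *Smtn*, *Lmod1* and *Des*. They are 10 of the 35663 gene entries of the deposited table, with each symbol on 1 entry. The kidneys were taken at E13.5 from mice of the C57/b6 strain and fall into 4 wild-type libraries, 3 *Foxd1GC* control libraries and 3 *Ntn1SPKO* libraries. *Foxd1GC* is a knock-in allele that makes Cre in Foxd1+ stromal progenitors and takes the place of the *Foxd1* copy it sits in. It is carried by both the control and the *Ntn1SPKO* kidneys, whereas the wild-type kidneys lack it. *Ntn1SPKO* kidneys (labelled Ntn1c/c) in addition carry floxed *Ntn1*. Cre deletes this gene, which encodes the secreted guidance factor netrin 1, in the stroma and its descendants but not in other kidney cells. The question put to these genes was whether their RNA differed between kidneys with and without stromal *Ntn1*.

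Smooth muscle contracts when calcium activates a myosin light chain kinase, which phosphorylates the light chain of smooth muscle myosin and lets it pull on filaments of smooth muscle actin. Proteins bound to these filaments, such as calponin, transgelin and tropomyosin, steady or restrain the filaments, and desmin filaments link the contractile units inside the cell. In the kidney, smooth muscle surrounds arteries and the ureter, and its vascular cells and pericytes arise largely from Foxd1+ stroma. Myocardin (*Myocd*), a coactivator of serum response factor (*Srf*), switches on many contractile genes through a short promoter element called the CArG box, and *Klf4* opposes it. *Acta2*, *Tpm2* and *Des* are also made by developing skeletal muscle.

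Of the 10 genes, 7 could be tested and 0 of these were called between *Ntn1SPKO* and *Foxd1GC* control kidneys (0.055% of all genes tested were called), and the values that stood out were those of a single control library. *Acta2*, smooth muscle alpha-actin, was 80.6 FPKM in *Foxd1GC* control replicate 3 and between 15.3 and 25.3 FPKM in the other 9 libraries. *Tagln*, *Actg2*, *Tpm2* and *Des* had their highest values in the same library. FPKM are fragments scaled to the length of each gene and to the size of the library, so levels of different genes can be compared per length. The deposited values already carried a median-of-ratios scaling between libraries, so they are not scaled to the fragment total alone. The labels do not say whether libraries of a group came from separate embryos or litters, so p-values measure the spread between these libraries only.

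The RefSeq promoters of 3 members (GRCm38.p6, 250 bases before to 50 after the annotated start, written 5′ to 3′ along the gene) are shown because the first of them, *Acta2*, had the largest step from its highest library to the next, the second, *Tpm2*, was high in the same library, and the third, *Smtn*, was not. All 3 lie on the minus strand, *Acta2* at chr19:34255324-34255623, *Tpm2* at chr4:43523505-43523804 and *Smtn* at chr11:3539243-3539542. Capitals mark the matches in *Acta2* to a CArG box with 1 G or C among its 6 middle bases.
Acta2: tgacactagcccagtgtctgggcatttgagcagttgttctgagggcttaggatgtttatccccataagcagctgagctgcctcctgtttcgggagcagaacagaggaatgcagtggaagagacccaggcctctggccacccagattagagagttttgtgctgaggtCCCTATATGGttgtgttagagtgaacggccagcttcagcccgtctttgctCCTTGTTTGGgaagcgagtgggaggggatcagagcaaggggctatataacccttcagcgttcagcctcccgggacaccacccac
Tpm2: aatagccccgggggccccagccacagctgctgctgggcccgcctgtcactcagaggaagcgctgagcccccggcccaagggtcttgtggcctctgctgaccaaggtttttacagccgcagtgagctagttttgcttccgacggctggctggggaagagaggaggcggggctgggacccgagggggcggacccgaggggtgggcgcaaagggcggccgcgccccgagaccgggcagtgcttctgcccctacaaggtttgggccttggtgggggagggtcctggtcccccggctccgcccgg
Smtn: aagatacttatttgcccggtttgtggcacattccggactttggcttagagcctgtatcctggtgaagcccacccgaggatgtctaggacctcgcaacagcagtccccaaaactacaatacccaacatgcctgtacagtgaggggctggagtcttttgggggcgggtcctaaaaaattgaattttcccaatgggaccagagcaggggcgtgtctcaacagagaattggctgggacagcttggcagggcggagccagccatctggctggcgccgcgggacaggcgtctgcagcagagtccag

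RefSeq promoters were found for 7 of the 10 members, namely *Acta2*, *Cnn1*, *Smtn*, *Mylk*, *Lmod1*, *Des* and *Tpm2*. The windows of *Mylk* and *Smtn* lay wholly inside the gene coordinates given below, so their matches describe an inner start. A CArG box with only A or T in the middle was in none of these 7 windows and in 1.63% of all 32851 promoters of the same length. The form with 1 G or C occurred only in *Acta2* among the 7, with 2 matches. The first, CCCTATATGG, begins 84 bases before the start and the second, CCTTGTTTGG, begins 34 bases before it. At least 1 match of this form was in 8.50% of all promoters and 2 or more were in 0.679%. The E-box CANNTG, the site read by basic helix-loop-helix factors, had 3 matches in *Acta2*, 2 each in *Lmod1* and *Des*, 1 each in *Cnn1*, *Smtn* and *Tpm2*, and none in *Mylk*, and 72.3% of all promoters held at least 1. Both motifs read the same on either strand and were searched in these windows alone, and a match is a string of letters and not a binding site.

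*Ntn1* was 16.3, 13.1 and 10.7 FPKM in *Ntn1SPKO* replicates 1 to 3, against 40.7, 24.2 and 51.4 FPKM in *Foxd1GC* control and 31.9, 28.3, 27.1 and 46.3 FPKM in wild-type libraries. Every *Ntn1SPKO* library was below every other library for this deleted gene, although the difference from controls of −1.48 on the log2 scale missed the threshold (limma adjusted p=0.447). Summed FPKM was 795829 to 1002638 per library, and libraries held roughly 26.0 to 32.1 M fragments (M, 1e6) by the step between neighbouring low values. Libraries of a group correlated at r=0.940 to 0.960 across genes. *Foxd1GC* control replicate 3 had the highest value of all 10 libraries for 20.7% of 14534 genes and the lowest for 24.1%, and wild-type replicate 3 for 21.5% and 18.2%. By summed Y-linked FPKM, wild-type replicate 3, *Foxd1GC* control replicate 2 and all 3 *Ntn1SPKO* libraries were male, and the other 5 were female, so embryo sex is unevenly spread over the groups.

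The 10 genes covered a wide span of levels. In wild-type kidneys (n=4, mean ± SD) *Tpm2* was highest at 115 ± 9.60 FPKM, above 95.9% of the detected entries, and *Lmod1* was lowest at 0.193 ± 0.0473 FPKM, above 31.2%. *Des* followed *Tpm2* at 36.2 ± 3.80 FPKM, and their ranges did not overlap. *Des* in turn did not overlap *Acta2* (21.3 ± 4.31 FPKM). *Acta2*, *Smtn* (19.1 ± 2.10 FPKM), *Mylk* (14.7 ± 5.73 FPKM) and *Tagln* (7.53 ± 3.26 FPKM) each overlapped the next in order, and so did *Actg2* (0.837 ± 0.306 FPKM), *Cnn1* (0.399 ± 0.448 FPKM), *Myh11* (0.257 ± 0.0479 FPKM) and *Lmod1*. The gap in the order lay between *Tagln* and *Actg2*, whose ranges were apart. In *Ntn1SPKO* kidneys *Smtn* stood above *Acta2*, but their ranges overlapped.

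**Figure D1:**
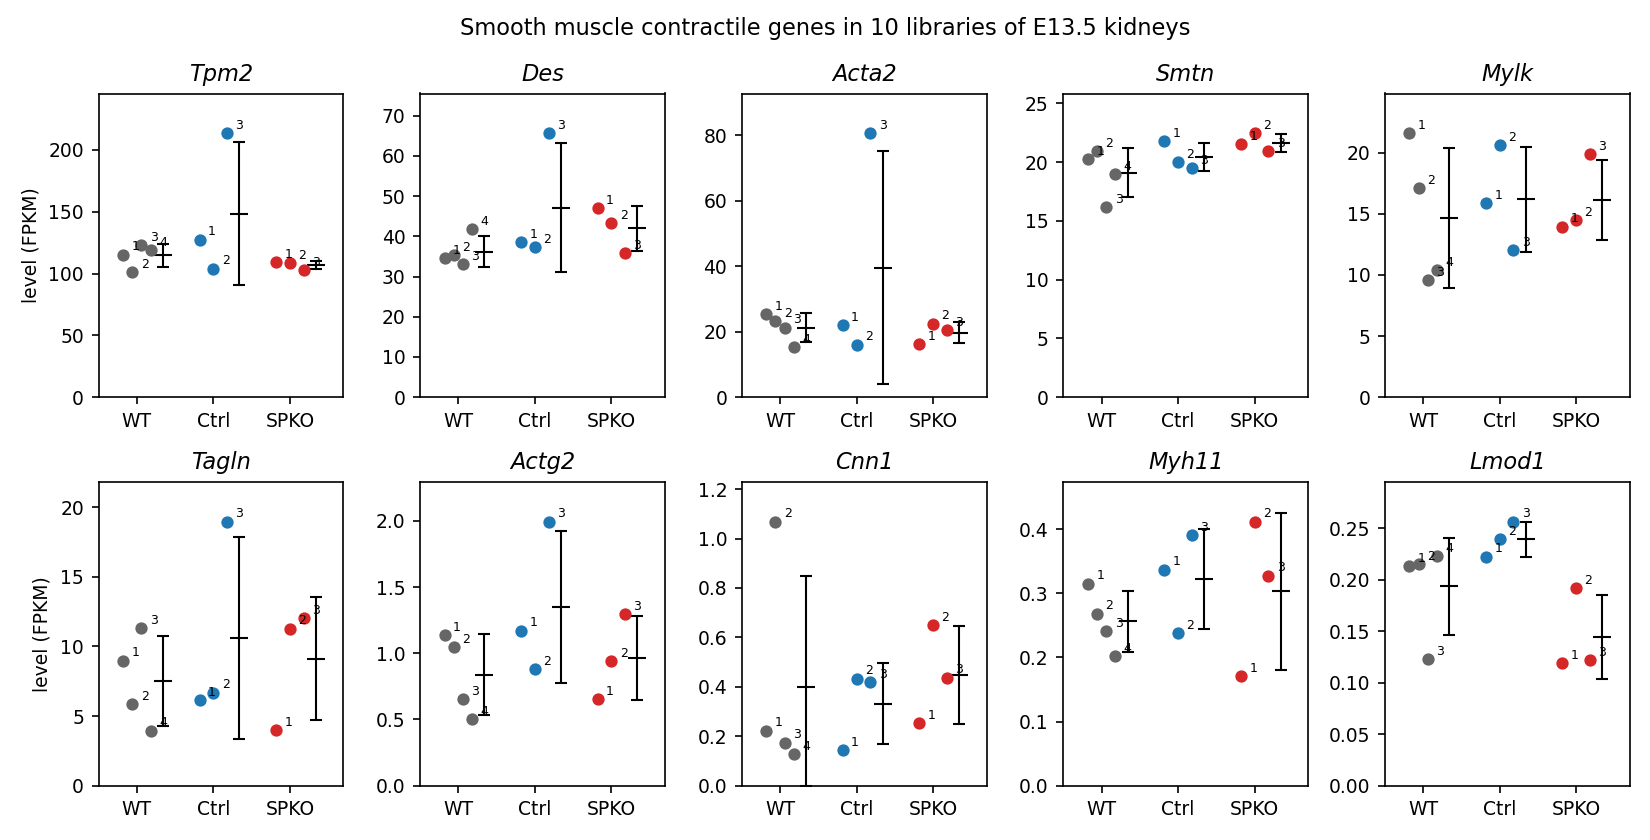
Level in FPKM (linear axes from 0, one panel a gene, ordered by wild-type mean) of the 10 genes in wild-type (WT, grey), Foxd1GC control (Ctrl, blue) and Ntn1SPKO (SPKO, red) libraries; numbers are replicates and black bars show the mean ± SD with the bar of Cnn1 in WT cut at 0. Control replicate 3 lies above all other libraries in the panels of Tpm2, Des, Acta2, Tagln, Actg2 and Lmod1, whereas the groups overlap in each panel except for Ctrl and SPKO in that of Lmod1.

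The 10 genes together summed to 206 to 234 FPKM in 9 libraries and to 413 FPKM in *Foxd1GC* control replicate 3. *Tpm2* alone made up 48.0% to 57.0% of that sum in each library. The share of *Acta2* was 7.25% to 11.2% in the 9 libraries and 19.5% in control replicate 3. In the same library *Smtn* held 4.72% and *Mylk* 2.92% of the sum, their lowest shares of all 10 libraries.

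Of the actins, *Acta2* (ENSMUSG00000035783.9, chr19:34241090-34255590, minus strand of GRCm38) forms the thin filaments of vascular smooth muscle. Its level was 25.3, 23.2, 21.3 and 15.3 FPKM in wild-type replicates 1 to 4, 22.0, 16.1 and 80.6 FPKM in *Foxd1GC* control replicates 1 to 3, and 16.1, 22.4 and 20.4 FPKM in *Ntn1SPKO* replicates 1 to 3. The groups overlapped, and all values but that of control replicate 3 lay within the wild-type range. *Actg2* (ENSMUSG00000059430.14, chr6:83512905-83536265, minus strand), the gamma-actin of visceral smooth muscle, was 1.139, 1.05, 0.657 and 0.503 FPKM in wild-type, 1.17, 0.882 and 1.99 FPKM in control, and 0.657, 0.944 and 1.29 FPKM in *Ntn1SPKO* libraries. Per length it was far lower than *Acta2*, and it was likewise highest in control replicate 3. Between *Ntn1SPKO* and control kidneys the log2 fold change of *Acta2* was −0.65 (standard error 0.58, 95% interval −2.04 to 0.74, limma adjusted p=0.598), and that of *Actg2* was −0.42 (standard error 0.38, −1.33 to 0.49, limma adjusted p=0.604). Without control replicate 3 the value of *Acta2* was 0.05 (limma adjusted p=0.957) and that of *Actg2* −0.11 (limma adjusted p=0.940). Actin coding sequences are alike, yet only 2.36% of the 31-base words of *Acta2* occurred in another gene, all in *Actg1* and some also in *Actb*. Of the words of *Actg2*, 0.908% occurred in another gene, *Actc1*.

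The motor is encoded by *Myh11* (ENSMUSG00000018830.10, chr16:14194535-14291372, minus strand), the heavy chain of smooth muscle myosin and a marker of mature smooth muscle. Its level was 0.315, 0.268, 0.241 and 0.202 FPKM in wild-type, 0.337, 0.238 and 0.391 FPKM in control and 0.170, 0.412 and 0.328 FPKM in *Ntn1SPKO* libraries, so that *Ntn1SPKO* replicates held both the lowest and the highest of the 10 values. *Mylk* (ENSMUSG00000022836.11, chr16:34745210-35002420, plus strand), the kinase that activates this myosin, is also made by cells other than smooth muscle. It was 21.6, 17.1, 9.55 and 10.4 FPKM in wild-type, 15.9, 20.6 and 12.1 FPKM in control and 14.0, 14.5 and 19.9 FPKM in *Ntn1SPKO* libraries. Unlike the actins, *Mylk* was low in control replicate 3, at 0.661 times the mean of the other 2 controls. Its log2 fold change between *Ntn1SPKO* and control kidneys was 0.01 (standard error 0.23, 95% interval −0.54 to 0.55, limma adjusted p=0.990). The widest gap within a group was in wild-type kidneys, where replicates 3 and 4 lay below replicates 1 and 2.

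Among the proteins bound to actin, *Tagln* (ENSMUSG00000032085.5, chr9:45929619-45936058, minus strand), or transgelin, is an early marker of the lineage. It was 8.99, 5.88, 11.3 and 3.95 FPKM in wild-type, 6.15, 6.68 and 19.0 FPKM in control and 4.02, 11.3 and 12.0 FPKM in *Ntn1SPKO* libraries. Replicates of every group spread more than 2-fold, and control replicate 3 was again the highest. The log2 fold change of *Tagln* against control was −0.17 (standard error 0.58, 95% interval −1.56 to 1.22, limma adjusted p=0.902) and became 0.35 (limma adjusted p=0.857) without control replicate 3. *Cnn1* (ENSMUSG00000001349.5, chr9:22099216-22109630, plus strand), the calponin of differentiated smooth muscle, was 0.223, 1.07, 0.174 and 0.129 FPKM in wild-type, 0.145, 0.433 and 0.419 FPKM in control and 0.253, 0.649 and 0.437 FPKM in *Ntn1SPKO* libraries. Its highest value was that of wild-type replicate 2, and the groups overlapped.

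*Tpm2* (ENSMUSG00000028464.16, chr4:43514711-43523765, minus strand), a tropomyosin that lies along the actin filament, was 115, 101, 123 and 119 FPKM in wild-type, 127, 104 and 214 FPKM in control and 109, 108 and 103 FPKM in *Ntn1SPKO* libraries. Its *Ntn1SPKO* values were close together and within the range of wild type. The log2 fold change against control was −0.40 (standard error 0.25, 95% interval −1.01 to 0.20, limma adjusted p=0.489) and −0.11 (limma adjusted p=0.771) without control replicate 3. *Smtn* (ENSMUSG00000020439.17, chr11:3517523-3540612, minus strand), or smoothelin, a cytoskeletal protein of contractile smooth muscle, had the narrowest interval of the 7 tested genes. Its level was 20.3, 20.9, 16.2 and 19.0 FPKM in wild-type, 21.8, 19.98 and 19.5 FPKM in control and 21.5, 22.5 and 20.9 FPKM in *Ntn1SPKO* libraries, which gave a log2 fold change of 0.08 against control (standard error 0.07, 95% interval −0.09 to 0.26, limma adjusted p=0.591). The interval leaves out a 2-fold change in either direction.

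*Lmod1* (ENSMUSG00000048096.7, chr1:135324807-135368065, plus strand), a leiomodin that starts actin filaments in smooth muscle, was 0.213, 0.215, 0.123 and 0.223 FPKM in wild-type, 0.222, 0.239 and 0.256 FPKM in control and 0.119, 0.191 and 0.122 FPKM in *Ntn1SPKO* libraries. It was the 1 member whose *Ntn1SPKO* values all lay below all control values, while wild-type replicate 3 lay among the *Ntn1SPKO* values. The difference was −0.49 on the log2 scale (exact permutation test, two-sided, p=0.1, the smallest that 3 against 3 libraries allow). Of the genes that were tested, 8.91% also had all *Ntn1SPKO* values below all control values. *Lmod1* was too low for the main test, and with no filter on low values its limma adjusted p was 0.550. At the rough depth above, its level is that of about 6 to 13 fragments in a library, against 31 to 73 for *Myh11* and 3 to 29 for *Cnn1*, so that counting error weighs on all 3. It weighs likewise on *Actg2*, which passed the filter but is at about 17 to 59 fragments.

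*Des* (ENSMUSG00000026208.9, chr1:75360329-75368579, plus strand), the intermediate filament of muscle cells, is also made by mesangial cells and pericytes of the kidney. It was 34.6, 35.4, 33.2 and 41.8 FPKM in wild-type, 38.5, 37.3 and 65.7 FPKM in control and 46.9, 43.2 and 35.8 FPKM in *Ntn1SPKO* libraries. Leaving aside control replicate 3, the highest values were those of *Ntn1SPKO* replicates 1 and 2. The log2 fold change was −0.13 against control (standard error 0.23, 95% interval −0.69 to 0.44, limma adjusted p=0.806) and 0.14 (limma adjusted p=0.771) without control replicate 3.

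A mean of at least 0.5 FPKM, the filter for the test, was reached by 7 of the 10 genes and not by *Myh11*, *Cnn1* and *Lmod1*. A call needed an adjusted p below 0.1 together with a difference of 2-fold or more. Of these 7, 0 were called between *Ntn1SPKO* and control kidneys, and 8 of 14550 genes (0.055%) were called in all. At an unadjusted p under 0.05, 0 of the 7 passed, against 10.7% of all genes tested, and in 0 of the 7 were the groups apart, against 19.9% of all genes. The median log2 fold change of the 7 was −0.17, with 5 lower and 2 higher in *Ntn1SPKO* kidneys, beside a median of 0.01 over all genes. Without control replicate 3 the median was 0.05, with 3 lower and 4 higher, and without control replicate 1 it was −0.46. A p that misses the threshold does not show that the levels were alike, and the intervals of *Acta2*, *Tagln*, *Actg2* and *Tpm2* each reach past a 2-fold fall. With embryo sex as a covariate, a fit that rests on the 1 male control library, *Acta2* was at 0.27, *Tagln* at 0.29, *Des* at 0.16 and *Mylk* at −0.37, the median of the 7 was 0.11, and 0 were called. In whole kidneys a change in the number of smooth muscle cells cannot be told apart from a change in RNA per cell, nor can ectopic cells be told apart from arterial ones.

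Against wild-type kidneys, which lack the Cre allele, the *Ntn1SPKO* values of all 10 genes overlapped. The log2 fold changes were −0.10 for *Acta2* (95% interval −0.54 to 0.33), 0.20 for *Actg2* (−0.60 to 1.00), 0.20 for *Mylk* (−0.49 to 0.89) and 0.23 for *Tagln* (−0.88 to 1.33). For *Acta2* this interval leaves out a 2-fold change, which the interval against control does not. The values were −0.10 for *Tpm2* (−0.28 to 0.09), 0.19 for *Smtn* (−0.04 to 0.41) and 0.21 for *Des* (−0.06 to 0.48). Limma adjusted p-values of the 7 were 0.947 or above. With 4 against 3 libraries the smallest exact permutation p is 0.0286, and *Smtn* had the smallest of the 10 genes at 0.143. Of the 7 tested genes, 0 were called, beside 7 of 14432 genes (0.0485%), and 0 had an unadjusted p under 0.05, beside 5.76%. Groups were apart for 7.1% of all genes. *Lmod1* (−0.26), *Cnn1* (0.41) and *Myh11* (0.14) were below the filter.

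Between *Foxd1GC* control and wild-type kidneys, which are with and without the *Foxd1GC* allele, the 7 tested genes all had positive log2 fold changes. They ran from 0.10 for *Smtn* to 0.62 for *Actg2*, and 0 of the 7 were called. In this comparison 1 of 14594 genes (0.00685%) was called. At an unadjusted p under 0.05 there were 0 of the 7, beside 7.06% of all genes, and 0 of the 7 had groups apart, beside 8.09%. *Acta2* was at 0.55 (95% interval −0.63 to 1.72, limma adjusted p=0.741), *Tpm2* at 0.31 (−0.21 to 0.83, limma adjusted p=0.694) and *Des* at 0.34 (−0.13 to 0.80, limma adjusted p=0.669). Without control replicate 3 these became −0.15, 0.01 and 0.07, and 5 of the 7 were positive. *Tagln* went from 0.40 to −0.12 and *Actg2* from 0.62 to 0.32, whereas *Mylk* went from 0.19 to 0.38. The 3 comparisons share libraries in pairs. For members that were high in control replicate 3, this library lowers the values against control and raises those of control against wild type. For *Mylk* and *Smtn*, which were low in it, both shifts go the other way.

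**Figure D2:**
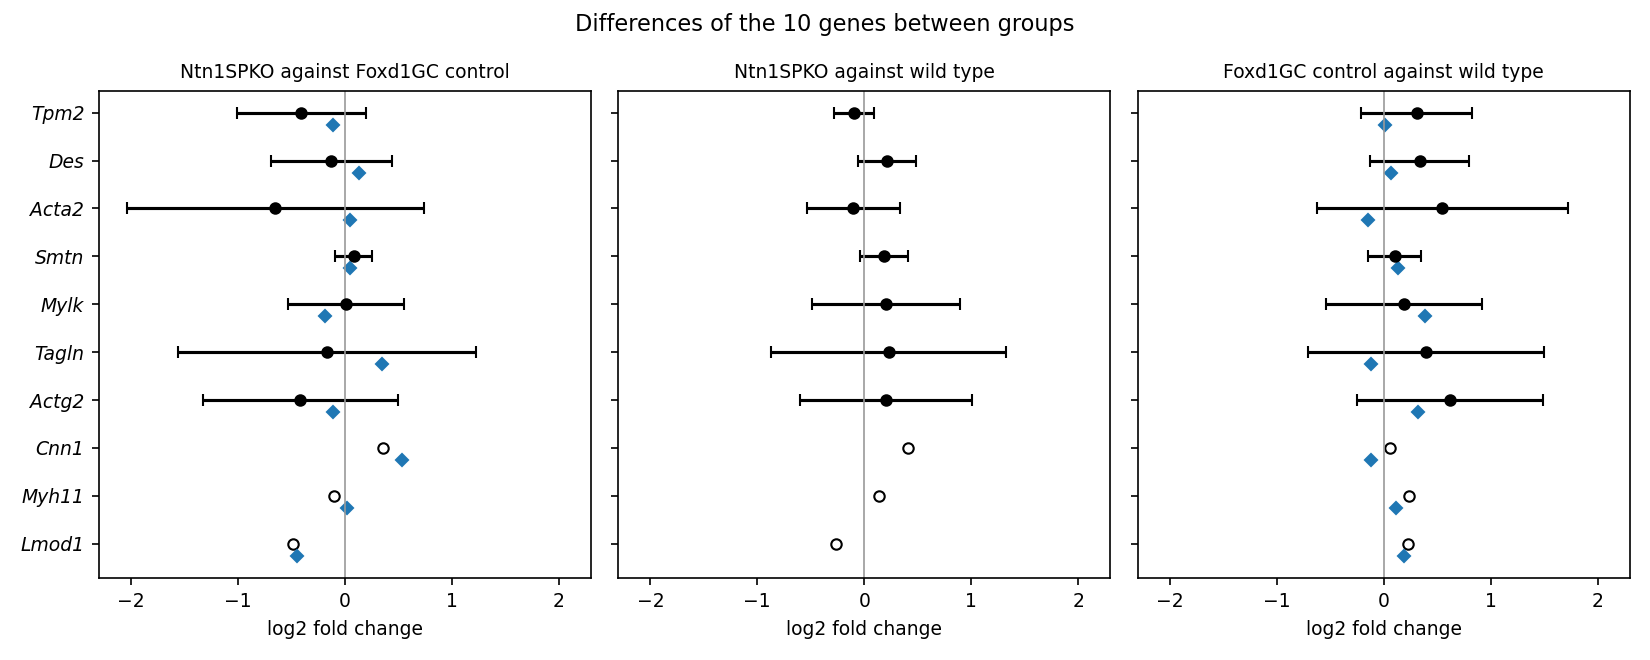
Log2 fold change (x axis, on log2(FPKM + 0.1)) of the 10 genes in the 3 comparisons; filled black points with bars are limma estimates with 95% intervals, open points are differences of genes below the filter and blue diamonds are the values without Foxd1GC control replicate 3. All 21 intervals include 0, and in the left panel the diamond of Acta2 lies at 0.05 where the full estimate is −0.65.

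*Foxd1GC* control replicate 3 held the highest of the 10 values for 6 members and was examined further. Relative to the mean of the other 2 controls it was 4.23 times as high for *Acta2*, 2.96 for *Tagln*, 1.94 for *Actg2*, 1.85 for *Tpm2* and 1.73 for *Des*. The ratio was 1.45 for *Cnn1*, 1.36 for *Myh11* and 1.11 for *Lmod1*, and it was 0.935 for *Smtn* and 0.661 for *Mylk*. It was at least 1.5 times the highest of the other 9 libraries for 4 of the 10 genes, *Acta2*, *Tagln*, *Actg2* and *Tpm2*, compared with 2.35% of 14534 genes. Genes of skeletal muscle were highest in the same library, with 19 of 19 listed markers at their maximum there. Their summed level was 1126 FPKM in control replicate 3, 249.7 and 80.6 FPKM in control replicates 1 and 2, 136 to 248 FPKM in wild-type and 26.5 to 93.2 FPKM in *Ntn1SPKO* libraries.

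*Myog*, a myogenic transcription factor, was 30.04 FPKM in control replicate 3 and 0.379 to 5.62 FPKM in the other 9 libraries. *Acta1*, the actin of skeletal muscle, was 72.6 FPKM there and 0.985 to 13.9 FPKM elsewhere, and *Actc1* was 146 FPKM against 4.71 to 38.1 FPKM. Embryonic myosin *Myh3* was 46.1 FPKM against 0.344 to 10.5 FPKM. None of the 19 skeletal genes was at 0 in all libraries, and 16 of 16 tested were lower in *Ntn1SPKO* than in control kidneys (median log2 fold change −2.29), with 0 called. At an unadjusted p under 0.05 there were 6 of the 16, beside 10.7% of all genes tested. Against wild type, a comparison without control replicate 3, 14 of 15 were lower (median −1.67) and 0 were called. An unadjusted p under 0.05 was reached by 10 of the 15, beside 5.76% of all genes tested. The 5 heart muscle markers summed to 2.18 to 5.55 FPKM, with *Nppa* at 0 in every library. Of 6 nephron progenitor and ureteric bud markers, 2 were highest and 2 lowest in control replicate 3, and their sum of 268 FPKM lay inside the 249.9 to 333 FPKM of the other libraries. The part of skeletal muscle RNA in the high *Acta2*, *Tpm2*, *Des*, *Tagln* and *Actg2* of this library was not tested.

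Genes of mural cells did not share that pattern. The 8 mural and pericyte markers summed to 101 FPKM in control replicate 3, the lowest of the 10 libraries, and to at most 130 FPKM. Of the 8, 2 were lowest in control replicate 3, beside 24.1% of 14534 genes. *Pdgfrb*, a receptor of pericytes and stroma, was 14.1 FPKM there and 14.9 to 21.1 FPKM elsewhere. *Rgs5*, a pericyte gene, was 23.5 FPKM there and 31.2 to 40.2 FPKM elsewhere, and *Notch3*, a receptor of vascular smooth muscle, was 14.1 FPKM beside 9.71 to 16.1 FPKM. Between *Ntn1SPKO* and control kidneys 0 of the 8 were called and their median log2 fold change was −0.06. Endothelial markers summed to 113 to 154 FPKM over the 10 libraries and markers of ureter and visceral mesenchyme to 66.1 to 95.9 FPKM.

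Wild-type replicate 3 was the lowest of all libraries for 3 members, *Smtn*, *Mylk* and *Des*, and for 18.2% of 14534 genes. Genes with coding sequences of 4000 bases or more were also low in it, with a median of −0.29 relative to the mean of the 10 libraries on the log2 scale, against −0.12 to 0.09 in the other libraries. Genes under 1000 bases were high in it, with a median of 0.21, against −0.05 to 0.05 in the other libraries. *Mylk* has a coding sequence of 5853 bases, *Smtn* of 2841 and *Des* of 1410. Genes of 1000 to 4000 bases, the class of *Smtn* and *Des*, had a median of −0.06 in wild-type replicate 3. *Tagln*, of 606 bases, and *Tpm2*, of 855, had their highest wild-type values in this library. *Cnn1*, of 894 bases, did not, at 0.174 FPKM, below wild-type replicates 1 and 2. *Myh11*, the longest member at 5940 bases, was 0.241 FPKM in it, above the 0.202 FPKM of wild-type replicate 4. The part of gene length in these values was not tested. Wild-type replicate 4 was lowest for 4 members, *Acta2*, *Tagln*, *Cnn1* and *Actg2*, and for 7.26% of 14534 genes.

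Of the factors that control these genes, *Myocd* was 1.98, 1.78, 1.35 and 0.882 FPKM in wild-type, 3.61, 2.62 and 2.601 FPKM in control and 1.48, 1.12 and 1.68 FPKM in *Ntn1SPKO* libraries. All 3 control values were above all other values, and control replicate 3 did not stand out. The log2 fold change of *Myocd* was −1.0 against control (standard error 0.22), with a limma adjusted p of 0.447 and an exact permutation p of 0.1. It was −0.03 against wild type, and control kidneys were at 0.97 against wild type (limma adjusted p=0.665, exact permutation p=0.0571).

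*Srf*, the partner of *Myocd* at CArG boxes, was 14.8 to 23.5 FPKM over the 10 libraries with a log2 fold change of 0.02 against control. *Klf4* was 10.4, 9.45, 10.7 and 13.8 FPKM in wild-type, 14.2, 7.22 and 22.1 FPKM in control and 7.39, 6.62 and 7.20 FPKM in *Ntn1SPKO* libraries. It was lower in every *Ntn1SPKO* library than in every wild-type library (log2 fold change −0.63, limma adjusted p=0.25, exact permutation p=0.0286). It overlapped with control replicate 2 (−0.89, limma adjusted p=0.447). Control replicate 3 had the highest *Klf4* of all libraries, as it had for *Acta2*.

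Of 38 other genes of smooth muscle contraction and its regulation, these 3 included, 36 were tested between *Ntn1SPKO* and control kidneys. Of these, 20 were lower and 16 higher. Their median on the log2 scale was −0.06, beside 0.01 over all genes, and 0 were called. At an unadjusted p under 0.05 there were 2 lower and 1 higher of the 36, beside 10.7% of all genes, and groups were apart for 6 of the 36, beside 19.9%, so that neither count exceeded the share over all genes. The 3 were *Myocd*, *Pdlim3*, a Z-disc protein of muscle (log2 fold change −1.13, limma adjusted p=0.447), and *Ppp1r12a*, the targeting subunit of the phosphatase that relaxes smooth muscle (0.13, limma adjusted p=0.447). Against wild type 17 were lower and 19 higher with a median of 0.00, and between control and wild type 15 were lower and 20 higher with a median of 0.08, and 0 were called in both.

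**Figure D3:**
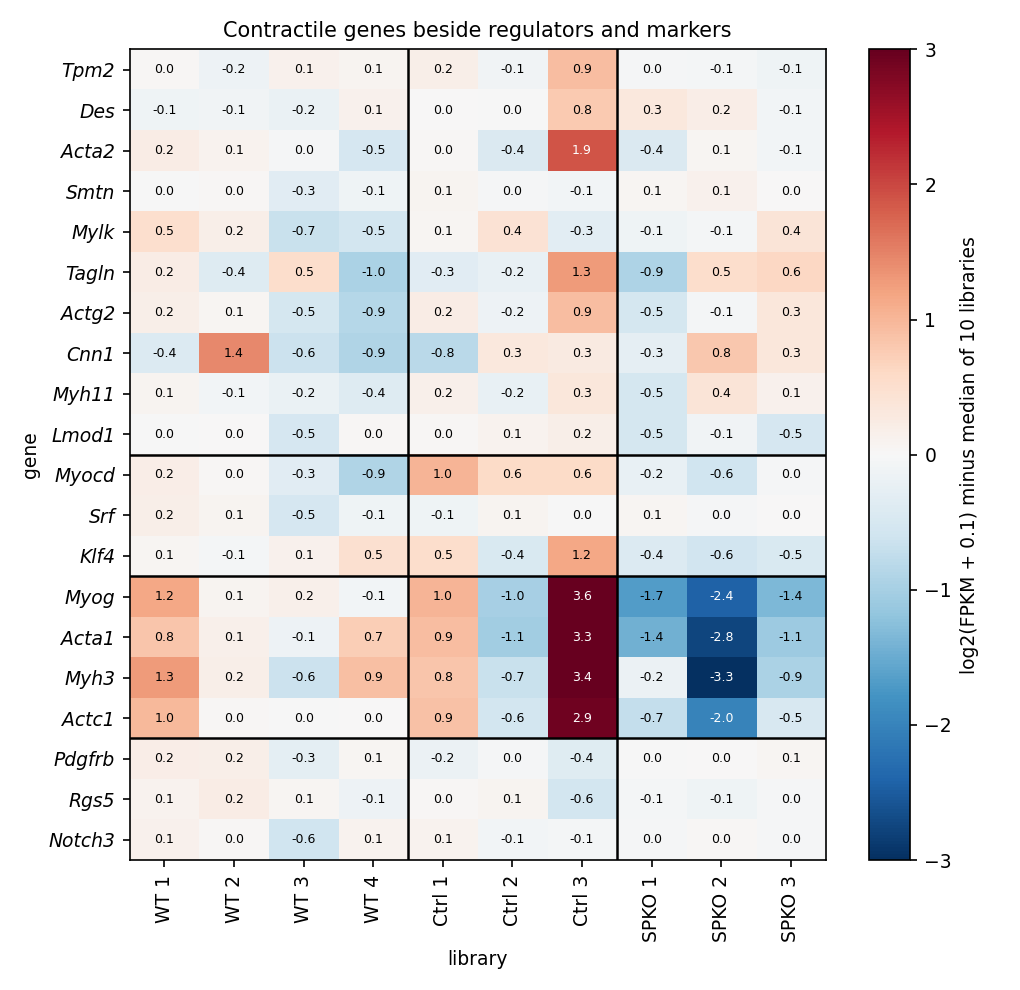
Difference of log2(FPKM + 0.1) from the median of the 10 libraries (colour and printed value, cut at −3 and 3 in colour) for the 10 contractile genes, 3 regulators, 4 skeletal muscle genes and 3 mural genes from top to bottom, in wild-type (WT), Foxd1GC control (Ctrl) and Ntn1SPKO (SPKO) libraries. The column of Ctrl 3 is high for Acta2, Tagln, Tpm2, Des and Actg2 and for the 4 skeletal genes but not for Smtn, Mylk or the 3 mural genes.

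The 10 genes varied together only in part. Over the 45 pairs of members the median correlation of log2 levels across 10 libraries was 0.35, with 7 pairs above 0.7 and 8 below 0. The highest was *Acta2* with *Tpm2* at r=0.88, which was 0.07 over the 9 libraries without control replicate 3. *Acta2* with *Myh11*, at 0.64 over 10 libraries, was 0.75 over those 9, and *Myh11* with *Actg2* went from 0.79 to 0.75. Without that library the median of the 45 pairs was 0.21, with 4 pairs above 0.7 and 16 below 0. The lowest pair was *Mylk* with *Tpm2* at −0.44 over 10 libraries, and *Cnn1* with *Tpm2* at −0.86 over the 9. These correlations describe 10 libraries of 3 genotypes in which the values of a library share its depth and tissue, and no p is attached to them.

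Among the genes outside the list that were most like the mean log2 level of the 7 tested members over the 10 libraries were *Klf2* (r=0.96), *Cnn2* (0.94), *Cavin2* (0.92) and *Dennd3* (0.92). Without control replicate 3 these correlations were 0.88, 0.80, 0.89 and 0.81. *Cnn2* is a calponin found outside muscle. *Myh11* was most like *Rpgrip1l* (0.91), *Lrmda* (0.91) and *Cln3* (0.90), and without that library at 0.91, 0.88 and 0.91. Each was picked as among the highest over all genes tested, and no p is given.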

How the data were processed

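The 10 members and the marker lists were chosen with earlier results of these data known. According to the methods of the study, the authors extracted RNA from whole E13.5 kidneys, ran Salmon on an index built from GRCm38 coding sequences, and summarised its output per gene by tximport. The deposited values are FPKM per gene and not read counts. Median-of-ratios factors over 16550 genes were 1 in all 10 libraries, so the FPKM already carried that scaling and were used as they are. With strand not given in the sources used here, overlapping genes cannot be told apart.

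*Ntn1SPKO* was compared with *Foxd1GC* control, *Ntn1SPKO* with wild type, and control with wild type, each in its own fit of limma 3.58.1 in R 4.3.3 on log2(FPKM + 0.1), with eBayes using an intensity trend and Benjamini-Hochberg adjustment over every gene that averaged 0.5 FPKM or more in the fitted libraries. A call needed an adjusted p below 0.1 together with a difference of 2-fold or more. A fold change on this scale understates that of low genes. Single genes also had an exact permutation test, two-sided. The script was tested on simulated data. Coordinates are those of GENCODE M21 (GRCm38), and promoters those of RefSeq (GRCm38.p6). Rough depths rest on the smallest steps in 1688 genes with 1 transcript and coding sequences of at least 1500 bases, and cover counting error only.

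Named genes were the 10 members, *Ntn1*, *Myocd*, *Srf*, *Klf4*, other listed smooth muscle genes with an unadjusted p under 0.05 against control, 4 skeletal and 3 mural markers, and the genes most like the members, of which 1 is not reported here. Alternatives were a pseudocount of 1, no filter, a filter at 1 FPKM, rescaling to the same total, no intensity trend, a single fit of all 10 libraries, a block for the replicate number, embryo sex as a covariate, and leaving out each library. Pairing of libraries by replicate number was not seen, with correlations of same-numbered deviations of −0.05 to 0.08, but a small shared effect could be missed. Depth was not given by the files as counts.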

Additional observations from a re-analysis of the deposited data

Results flagged for a closer look

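Of 14 genes examined in the 4 wild-type libraries, 2 had a library far from the other 3, beside about 1 in 20 by chance. *Cnn1* was 1.07 FPKM in wild-type replicate 2, the highest of 4, with 0.129 to 0.223 FPKM in the others. *Lmod1* was 0.123 FPKM in wild-type replicate 3, the lowest of 4, with 0.213 to 0.223 FPKM in the others. Both genes rest on few fragments in every library. The control and *Ntn1SPKO* groups hold 3 libraries and were not examined in this way, so that control replicate 3 does not appear here.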

How the results depend on the processing

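None of the 7 tested members was called in any comparison under any alternative. Between *Ntn1SPKO* and control kidneys, 8 genes were called by limma, 21 with no filter, 4 with embryo sex as a covariate and 3 (without *Ntn1SPKO* replicate 2) to 78 (without control replicate 2) when a library was left out, with 20 without control replicate 3. Against wild type, 7 were called, 2 with a pseudocount of 1, 18 with no filter, 12 with no intensity trend, 187 with embryo sex and 1 (without *Ntn1SPKO* replicate 2) to 20 (without wild-type replicate 4) when a library was left out. Between control and wild type, 1 was called, 2 with a pseudocount of 1, 9 with no filter, 4 with no intensity trend and 3 (without control replicate 3 or wild-type replicate 4) to 20 (without control replicate 2) when a library was left out. With all 10 libraries in one limma fit, 0 were called in each comparison, and 1598, 636 and 1496 genes had an unadjusted p under 0.05. Pairing by replicate number was not seen, but the labels do not say whether same-numbered libraries share a litter. With the replicate block, which leaves wild-type replicate 4 without a partner, 4, 6 and 0 genes were called, and *Tagln* against wild type went to −0.041. With embryo sex in the model, log2 fold changes against control were 0.27 for *Acta2*, 0.29 for *Tagln*, 0.072 for *Actg2*, −0.37 for *Mylk*, 0.16 for *Des* and 0.039 for *Tpm2*, and against wild type *Tagln* was −0.46. That fit rests on 1 male control and 1 male wild-type library. In it *Smtn* was 0.41 against wild type, under the 2-fold limit. This value rests on wild-type replicate 3, the male wild-type library, which had the lowest *Smtn* of all libraries at 16.2 FPKM. Leaving out 1 library at a time gave, against control, −1.11 to 0.048 for *Acta2*, −0.46 to 0.35 for *Tagln*, −0.18 to 0.20 for *Mylk* and −0.27 to 0.14 for *Des*. Against wild type it gave −0.25 to 0.033 for *Acta2*, −0.048 to 0.73 for *Tagln* and −0.015 to 0.43 for *Actg2*. Between control and wild type it gave −0.15 to 1.01 for *Acta2* and −0.12 to 0.68 for *Tagln*. The cause was not tested. Of 101, 107 and 108 member values under the alternatives, 12, 7 and 2 changed direction. Depth limits *Myh11*, *Cnn1*, *Lmod1* and *Actg2*.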
